A study of Mus musculus with 22 samples.

Results

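The TALE cofactors of Hox proteins described here are 8 homeodomain genes, Meis1, Meis2, Meis3, Pbx2, Pbx3, Pbx4, Pknox1 and Pknox2, chosen by symbol from the 52535 symbols of each count table. All 8 were present in every table and all 8 passed the filter on low counts, as did 16765 genes in all. The RNA-seq libraries came from the mouse embryonic stem cell line E14, which had been moved out of medium with LIF and the 2 kinase inhibitors (2i) and given 2 µM retinoic acid for 1 day. There were 3 libraries each of D-KO, E1-KO, E2-KO and WT cells, and all 12 shared the retinoic acid treatment, so that induction by retinoic acid itself cannot be read from these libraries. E1 and E2 are 2 enhancers that the series title ties to the HoxB genes. D-KO is not spelled out in the labels and is read here as the deletion of both. The labels call the libraries biological replicates without naming separate cultures or clones, so p-values measure only the spread between these samples, and whether a KO genotype is 1 clone or several is not stated in them.

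TALE homeodomain proteins carry 3 extra residues in a loop of the homeodomain. Pbx proteins bind DNA together with Hox proteins and raise the sequence specificity of the Hox partner. Meis proteins and the related Pknox proteins (also called Prep) form dimers with Pbx, help to bring Pbx into the nucleus, and join Hox and Pbx in ternary complexes, for example on the autoregulatory enhancer of Hoxb1 in the hindbrain. Several Meis and Pbx genes are known to respond to retinoic acid in mouse embryonal carcinoma cells.

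Against WT, Meis1 and Meis2 were lower and Pbx2 was higher in all 3 KO genotypes, and the other members were called in at most 1. A gene was called where its p-value from edgeR's quasi-likelihood test, adjusted over all 16765 tested genes by the Benjamini-Hochberg method, was below 0.05. Meis1 alone kept all 3 calls when the trends of the counts with GC content and gene length were removed, as given below. In D-KO 3 members were called, 1 higher and 2 lower, where 22.8% of all tested genes were called (10.6% higher and 12.2% lower). In E1-KO 4 members were called, 1 higher and 3 lower, beside 34.2% of all genes (15.7% higher and 18.5% lower). In E2-KO 5 members were called, 2 higher and 3 lower, beside 35.3% of all genes (16.7% higher and 18.6% lower). No test set these shares against each other. The median log2 fold change of the 8 members was -0.09 in D-KO, -0.09 in E1-KO and -0.16 in E2-KO, beside -0.020 in D-KO, -0.0078 in E1-KO and 0.0041 in E2-KO over all tested genes. The 3 comparisons share the WT libraries.

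The promoters of Meis1, Meis2 and Pbx2 are shown because these 3 members were called in every KO genotype against WT. Each runs from 250 bases before to 50 after the RefSeq start (GRCm38.p6), 5′ to 3′ on the strand of the gene, with CpG dinucleotides in capitals. The Meis2 and Pbx2 windows lie wholly inside the gene spans given below, downstream of their annotated 5′ ends. Other start sites were not examined.
Meis1, chr11:19018920-19019219, minus strand: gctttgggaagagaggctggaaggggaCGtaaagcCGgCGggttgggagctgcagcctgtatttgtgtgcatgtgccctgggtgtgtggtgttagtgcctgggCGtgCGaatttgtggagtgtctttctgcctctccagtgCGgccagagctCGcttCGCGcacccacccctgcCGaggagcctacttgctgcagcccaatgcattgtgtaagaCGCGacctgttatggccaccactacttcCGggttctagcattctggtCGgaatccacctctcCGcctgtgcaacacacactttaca
Meis2, chr2:116064570-116064869, minus strand: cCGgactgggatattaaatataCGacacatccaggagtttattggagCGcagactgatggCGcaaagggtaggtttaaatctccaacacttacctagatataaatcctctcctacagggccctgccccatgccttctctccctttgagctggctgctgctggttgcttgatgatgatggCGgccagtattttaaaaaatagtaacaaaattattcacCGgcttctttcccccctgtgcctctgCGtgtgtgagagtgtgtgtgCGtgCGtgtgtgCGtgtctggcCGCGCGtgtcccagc
Pbx2, chr17:34592009-34592308, plus strand: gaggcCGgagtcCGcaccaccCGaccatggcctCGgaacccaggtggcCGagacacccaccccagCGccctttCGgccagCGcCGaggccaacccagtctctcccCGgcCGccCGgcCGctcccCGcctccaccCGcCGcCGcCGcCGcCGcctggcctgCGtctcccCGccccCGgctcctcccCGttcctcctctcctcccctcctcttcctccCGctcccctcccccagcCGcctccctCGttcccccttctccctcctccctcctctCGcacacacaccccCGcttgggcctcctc

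The Pbx2 window, of the gene that was higher in the KO genotypes, was the richest of the 3 in G and C, at 76% GC with 29 CpGs. The Meis1 window had 58.3% GC and 15 CpGs, and the Meis2 window 51% GC and 13 CpGs. The median GC content of all 27025 promoters in the table was 52.7%. The table held the promoters of 5 of the 8 members, these 3 and those of Meis3 and Pbx4. None of the 5 windows held, on either strand, the retinoic acid receptor half-site AGGTCA, the Hox-Pbx site TGATNNAT or the Meis site TGACAG. Of all promoters in the table, 16.0% held the first, 9.04% the second and 19.3% the third of these.

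Counted reads per library ran from 9101547 to 13007735. The WT libraries differed more among themselves than those of any KO genotype: the median SD of log2 CPM (counts scaled to a common library size, with TMM factors) of the 8 members was 0.129 in D-KO, 0.141 in E1-KO and 0.103 in E2-KO, against 0.294 in WT. Relative expression followed the GC content of genes with a Spearman correlation, across genes, of -0.10 to -0.02 in D-KO libraries, 0.25 to 0.35 in E1-KO libraries and 0.30 to 0.43 in E2-KO libraries, and of -0.56, 0.14 and -0.43 in WT replicates 1, 2 and 3. Summed CPM of 8 pluripotency markers was 5143 to 5327 in D-KO, 6421 to 6774 in E1-KO and 6053 to 6523 in E2-KO, against 2567 to 4890 in WT, with no marker at 0. Summed CPM of 10 primitive endoderm markers was 232 to 236 in D-KO, 138 to 147 in E1-KO and 215 to 227 in E2-KO, against 377 to 425 in WT, with none at 0. Summed CPM of 9 early neural markers was 80.8 to 91.1 in D-KO, 53.4 to 56.3 in E1-KO and 53.0 to 57.9 in E2-KO, against 39.0 to 61.8 in WT, with Neurog2 at 0 in E2-KO and WT and Olig2 at 0 in E2-KO. In bulk RNA, fewer cells of a type and less RNA per cell cannot be told apart, and the part of these marker differences in the results was not tested. Hoxb1, in the cluster that the enhancers are tied to, averaged 0.528 ± 0.306 CPM in D-KO, 0.291 ± 0.109 in E1-KO and 0.838 ± 0.450 in E2-KO, against 22.9 ± 7.5 in WT (SD, n = 3 each).

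The Meis genes encode the partners that hold Pbx in the nucleus. Meis1 and Meis2 fell in all 3 KO genotypes against WT, Meis1 by the larger amount, and Meis3 passed the test in none. Meis1 (chr11:18879817-19018985, minus strand, GRCm38) is known for its part in hindbrain patterning and in blood stem cells. It had 7.87, 8.50 and 8.18 CPM in D-KO libraries, 6.16, 4.18 and 5.95 CPM in E1-KO libraries, 7.40, 6.78 and 6.45 CPM in E2-KO libraries, and 20.9, 21.7 and 12.5 CPM in WT libraries. Every KO library lay below every WT library, and the 3 D-KO libraries lay above the 6 libraries of the single deletions. Against WT, Meis1 was 2.25-fold lower in D-KO (log2 fold change -1.17 ± 0.21 SE, adjusted p = 0.00135), 3.40-fold lower in E1-KO (-1.76 ± 0.22, adjusted p = 4.31e-05) and 2.68-fold lower in E2-KO (-1.42 ± 0.21, adjusted p = 0.000249), all by edgeR's quasi-likelihood test. Meis1 shares exon bases with the loci Gm37818 on its own strand and Gm16140 on the opposite strand, which had 15 and 2 counts in the 12 libraries together.

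Meis2 (chr2:115863064-116065839, minus strand) encodes a close paralogue of Meis1. Meis2 had 46.9, 51.2 and 46.9 CPM in D-KO libraries, 47.5, 39.9 and 44.2 CPM in E1-KO libraries, 39.9, 42.8 and 42.4 CPM in E2-KO libraries, and 73.7, 60.2 and 70.8 CPM in WT libraries. Again no KO library reached any WT library. The log2 fold change against WT was -0.50 ± 0.11 in D-KO (edgeR adjusted p = 0.00541), -0.64 ± 0.11 in E1-KO (adjusted p = 0.000698) and -0.71 ± 0.11 in E2-KO (adjusted p = 0.000336), which is 1.41-fold lower in D-KO, 1.55-fold lower in E1-KO and 1.64-fold lower in E2-KO.

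Meis3 (chr7:16175090-16186504, plus strand), the Meis gene with the fewest reads, was counted with only 4 to 41 reads per library. It had 2.12, 2.83 and 3.70 CPM in D-KO libraries, 2.28, 2.14 and 3.23 CPM in E1-KO libraries, 3.22, 4.28 and 3.79 CPM in E2-KO libraries, and 2.57, 2.82 and 0.475 CPM in WT libraries. WT replicate 3 was alone at the low end, and the other WT libraries lay within the range of the D-KO and E1-KO libraries. All 3 E2-KO libraries lay above all WT libraries. The log2 fold change against WT was 0.51 ± 0.43 in D-KO (edgeR adjusted p = 0.422), 0.33 ± 0.44 in E1-KO (adjusted p = 0.584) and 0.89 ± 0.43 in E2-KO (adjusted p = 0.114), none past the threshold. The 95% interval ran from -0.42 to 1.44 in D-KO, from -0.61 to 1.26 in E1-KO and from -0.02 to 1.81 in E2-KO. Meis3 passed in E2-KO without WT replicate 2, at 1.27 (edgeR adjusted p = 0.0369), and stood at 0.47 without WT replicate 3.

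**Figure D1:**
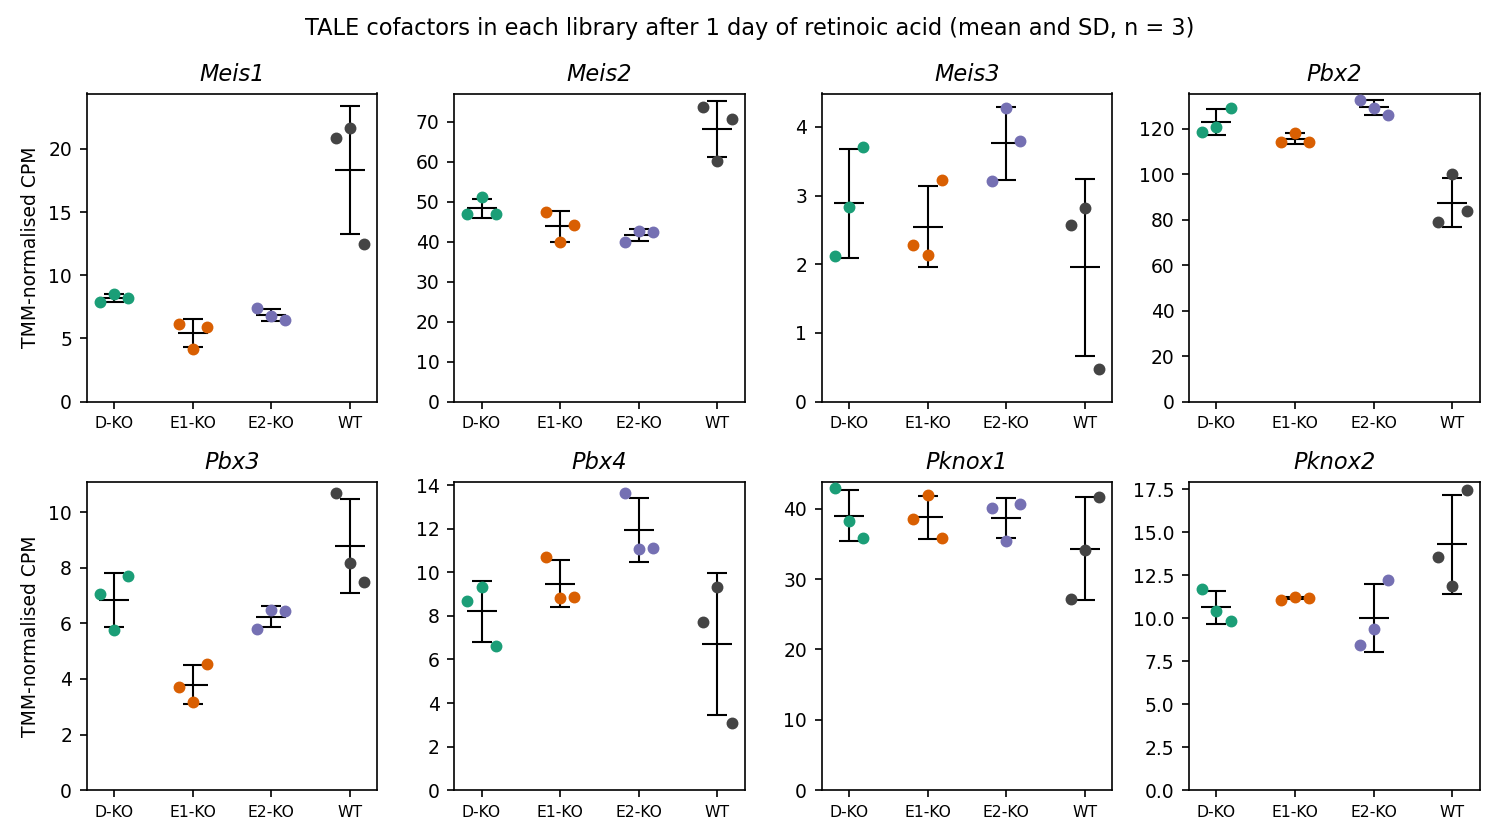
Each panel plots 1 gene, with TMM-normalised CPM on a y axis that starts at 0 and the 4 genotypes on the x axis. Points are libraries, and the black lines give the mean and SD of 3 libraries. Meis1 and Meis2 in KO libraries lie below all WT libraries and Pbx2 lies above them, while the Pknox1 groups overlap.

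The Pbx genes encode the DNA-binding partners of Hox proteins. Pbx2 rose in all 3 KO genotypes against WT, Pbx3 fell in E1-KO, and Pbx4 rose in E2-KO. Pbx2 (chr17:34591266-34597400, plus strand) is broadly expressed in the mouse embryo. Pbx2 had 118, 121 and 129 CPM in D-KO libraries, 114, 118 and 114 CPM in E1-KO libraries, 133, 129 and 126 CPM in E2-KO libraries, and 79.0, 100 and 83.8 CPM in WT libraries. Every KO library exceeded every WT library. The log2 fold change against WT was 0.49 ± 0.10 in D-KO (edgeR adjusted p = 0.00396), 0.40 ± 0.10 in E1-KO (adjusted p = 0.00886) and 0.56 ± 0.10 in E2-KO (adjusted p = 0.00108), which is 1.40-fold higher in D-KO, 1.32-fold higher in E1-KO and 1.48-fold higher in E2-KO. Pbx2 shares 227 exon bases on the same strand with Gpsm3, which had 458 counts in all 12 libraries together, against 705 to 1348 counts of Pbx2 in a single library.

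Pbx3 (chr2:34171457-34373142, minus strand) had 7.06, 5.77 and 7.70 CPM in D-KO libraries, 3.70, 3.16 and 4.54 CPM in E1-KO libraries, 5.79, 6.47 and 6.45 CPM in E2-KO libraries, and 10.7, 8.16 and 7.49 CPM in WT libraries. In the mouse, Pbx3 is needed for the brainstem circuits of breathing. The E1-KO libraries lay below all 9 others, the E2-KO libraries lay below all WT libraries, and the D-KO and WT libraries overlapped. Pbx3 was 2.32-fold lower in E1-KO than in WT (log2 fold change -1.21 ± 0.21, edgeR adjusted p = 0.000721). The log2 fold change was -0.36 ± 0.20 in D-KO (adjusted p = 0.219) and -0.49 ± 0.20 in E2-KO (adjusted p = 0.0736), neither past the threshold. Pbx3 did pass in E2-KO without WT replicate 2 or WT replicate 3 (lowest edgeR adjusted p = 0.0399). The E2-KO value ran from -0.59 to -0.33 over the 12 fits that left out 1 library each.

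Pbx4 (chr8:69832491-69872292, plus strand), best known in mouse testis, had 8.68, 9.31 and 6.62 CPM in D-KO libraries, 10.7, 8.83 and 8.87 CPM in E1-KO libraries, 13.6, 11.1 and 11.1 CPM in E2-KO libraries, and 7.72, 9.34 and 3.09 CPM in WT libraries. WT replicate 3 was again the lowest of the 12, and the E2-KO libraries were the highest 3. Pbx4 rose in E2-KO by a log2 fold change of 0.80 ± 0.29 (edgeR adjusted p = 0.0423). The change was 0.26 ± 0.29 in D-KO (adjusted p = 0.557) and 0.47 ± 0.29 in E1-KO (adjusted p = 0.221). The E2-KO call was lost in 10 of the 12 fits that left out 1 library each, where the log2 fold change ran from 0.47 without WT replicate 3 to 1.12 without WT replicate 2.

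The Pknox genes encode the Prep proteins, which bind Pbx in place of Meis. Pknox1 (chr17:31564734-31607693, plus strand) is essential to the mouse embryo at an early stage, and its levels overlapped in all 4 genotypes. Pknox1 had 43.0, 38.2 and 35.8 CPM in D-KO libraries, 38.6, 41.9 and 35.8 CPM in E1-KO libraries, 40.1, 35.4 and 40.6 CPM in E2-KO libraries, and 27.2, 34.1 and 41.7 CPM in WT libraries. The log2 fold change against WT was 0.19 ± 0.15 in D-KO (edgeR adjusted p = 0.384), 0.18 ± 0.15 in E1-KO (adjusted p = 0.361) and 0.17 ± 0.15 in E2-KO (adjusted p = 0.372). The 95% intervals of this fit ran from -0.13 to 0.50 in D-KO, and from -0.14 to 0.49 in both E1-KO and E2-KO, on the log2 scale. They cover only the spread between these libraries.

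Pknox2 (chr9:36890982-37147407, minus strand), whose expression in the adult mouse is more restricted than that of Pknox1, had 11.7, 10.4 and 9.84 CPM in D-KO libraries, 11.1, 11.3 and 11.2 CPM in E1-KO libraries, 8.47, 9.39 and 12.2 CPM in E2-KO libraries, and 13.6, 11.9 and 17.5 CPM in WT libraries. The D-KO and E1-KO libraries lay below all WT libraries, while 1 E2-KO library reached into the WT range. Pknox2 fell in E2-KO by 0.50 ± 0.18 on the log2 scale (edgeR adjusted p = 0.0452). The log2 fold change was -0.42 ± 0.18 in D-KO (adjusted p = 0.112) and -0.35 ± 0.18 in E1-KO (adjusted p = 0.149), both short of the threshold. The E2-KO call was lost in 10 of the 12 fits that left out 1 library each, with log2 fold changes from -0.67 without E2-KO replicate 3 to -0.34 without WT replicate 3.

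Of the 8 members, Meis1, Meis2 and Pbx3 had the transcripts poorest in G and C. Transcript GC content was 42.4% for Meis1, 43.8% for Meis2 and 38.8% for Pbx3, against 55.6% for Pbx2, 57.2% for Pbx4, 59.4% for Meis3, 49.8% for Pknox1 and 52.9% for Pknox2. When the trends of the counts with GC content and gene length were removed from each library, Meis1 stayed called in all 3 genotypes, with log2 fold changes of -0.88 in D-KO (edgeR adjusted p = 0.0271), -1.41 in E1-KO (adjusted p = 0.00158) and -0.95 in E2-KO (adjusted p = 0.0172). Pbx2 then had log2 fold changes of 0.27 in D-KO (adjusted p = 0.0259), 0.05 in E1-KO (adjusted p = 0.690) and 0.16 in E2-KO (adjusted p = 0.159), so that its call was lost in both single deletions. Those of Meis2 were -0.24 in D-KO (adjusted p = 0.0673), -0.31 in E1-KO (adjusted p = 0.0206) and -0.33 in E2-KO (adjusted p = 0.0144). Pbx3 in E1-KO kept its call at -0.79 (adjusted p = 0.00906), Pbx4 in E2-KO lost it at 0.33 (adjusted p = 0.278), and Pknox2 passed in E1-KO at -0.55 (adjusted p = 0.0412) and in E2-KO at -0.72 (adjusted p = 0.0126). When only the libraries of the genotypes compared were fitted, Meis1 stayed called in all 3 genotypes. Pbx2 lost its call in D-KO (edgeR adjusted p = 0.0723) and E1-KO (adjusted p = 0.0882). Meis2 lost its call in D-KO (adjusted p = 0.0715). These fits called 9.09% of all genes in D-KO and 15.9% in E1-KO, where the 12 libraries called 22.8% and 34.2%.

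**Figure D2:**
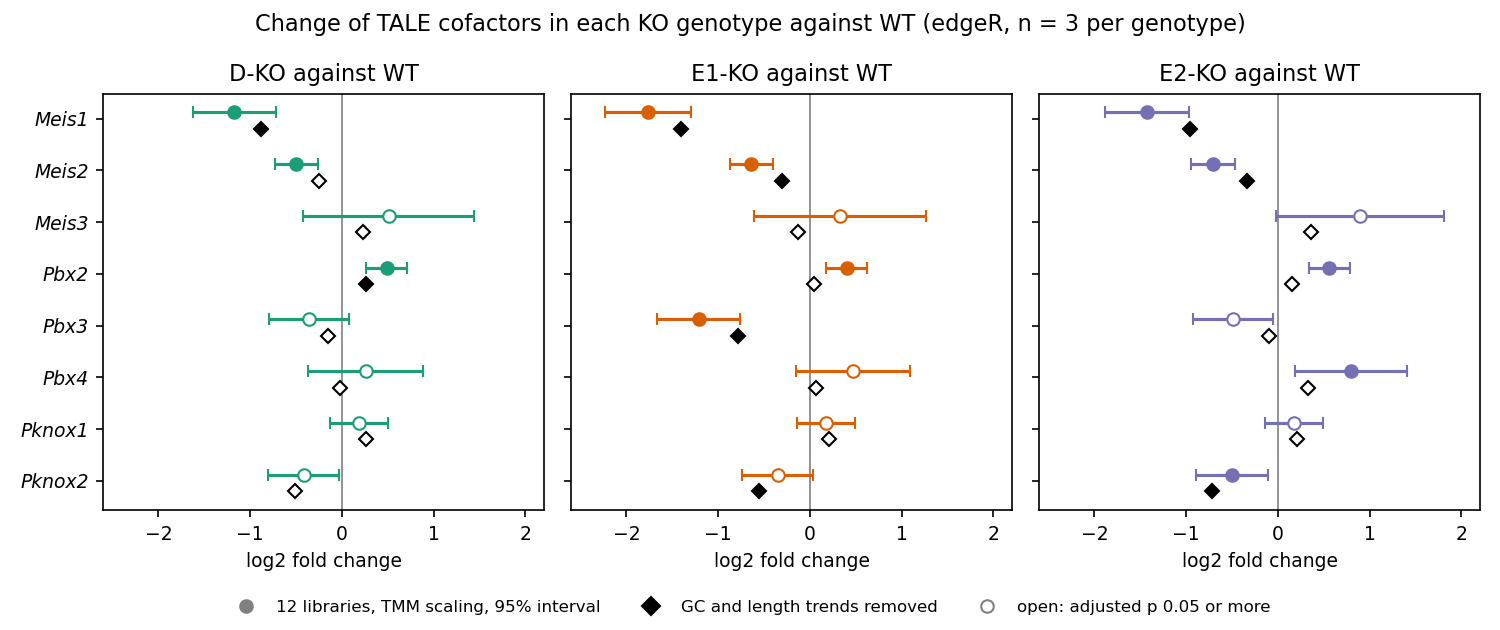
Each panel plots the log2 fold change of the 8 genes in 1 KO genotype against WT, with coloured circles for the values given first in the text and their 95% intervals, and diamonds for the values after the trends with GC content and length were removed. Filled symbols have an edgeR adjusted p below 0.05. Meis1 is filled by both in all 3 panels, while the Pbx2 diamonds sit at 0.05 in E1-KO and 0.16 in E2-KO.

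Among the 3 comparisons between KO genotypes, 1 member was called in 1 comparison. Pbx3 was the only member called in D-KO against E1-KO, where it was 1.81-fold higher (log2 fold change 0.85 ± 0.22, edgeR adjusted p = 0.0168). In that comparison 15.9% of all tested genes were called (8.43% higher and 7.52% lower). Meis1 was 0.59 ± 0.23 higher in D-KO than in E1-KO on the log2 scale, which did not pass (adjusted p = 0.0871), although the 3 libraries of each genotype did not overlap. It passed with limma (log2 fold change 0.60, adjusted p = 0.0051) and when only the D-KO and E1-KO libraries were fitted (0.60, edgeR adjusted p = 0.00609), where 47.6% of all genes were called by limma and 50.7% in the fit of those libraries. The Pbx3 call was lost when E1-KO replicate 1 or 2 or D-KO replicate 1 or 3 was left out, with log2 values of 0.74 to 1.00 over all 12 such fits.

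No member was called in D-KO against E2-KO, where 4.48% of all genes were called (1.84% higher and 2.64% lower), and none had an unadjusted p below 0.05 in edgeR. DESeq2 called 0 members there beside 7.27% of all genes. With limma, which called 34.5% of all genes there, 2 members passed, Meis2 (log2 fold change 0.21, adjusted p = 0.0384) and Pbx4 (-0.54, adjusted p = 0.0105). No member was called in E1-KO against E2-KO either, where 0.596% of all genes were called (0.322% higher and 0.274% lower). Pbx3 alone had an unadjusted p below 0.05 there (log2 fold change -0.72 ± 0.22, edgeR adjusted p = 0.193). DESeq2 called 0 members there beside 1.57% of all genes. With limma, which called 17.1% of all genes there, 2 members passed, Pbx2 (-0.17, adjusted p = 0.0413) and Pbx3 (-0.72, adjusted p = 0.0110). The spread that edgeR shares over the 12 libraries includes that of the WT libraries, and limma gave the WT libraries weights of 0.48, 0.13 and 0.14 and the KO libraries weights of 1.26 to 1.96.

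The interaction term asks whether the change in D-KO equals the sum, on the log2 scale, of the changes in E1-KO and E2-KO. It passed for 4 members, 3 of them positive and 1 negative, and 35.2% of all genes were called (18.1% positive and 17.1% negative). Meis1 changed by -1.17 in D-KO, where the single deletions summed to -3.19, and the interaction was 2.02 ± 0.31 (edgeR adjusted p = 0.000308). Meis2 changed by -0.50 in D-KO beside a sum of -1.35 (interaction 0.85 ± 0.16, adjusted p = 0.00116). Pbx3 stood at -0.36 in D-KO beside a sum of -1.70 (interaction 1.35 ± 0.30, adjusted p = 0.00361), and Pbx2 at 0.49 beside a sum of 0.96 (interaction -0.47 ± 0.15, adjusted p = 0.0219). The Pbx2 call was lost without E1-KO replicate 2, E2-KO replicate 1 or D-KO replicate 1, with values of -0.58 to -0.41 over the 12 fits that left out 1 library.

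For the other members the interaction did not pass: -0.71 ± 0.60 for Meis3 (edgeR adjusted p = 0.375), -1.01 ± 0.40 for Pbx4 (adjusted p = 0.0655), -0.17 ± 0.21 for Pknox1 (adjusted p = 0.554) and 0.43 ± 0.26 for Pknox2 (adjusted p = 0.206). In all 8 members the D-KO value had the sign of the sum and a smaller size. The sum counts the WT libraries 2 times and the D-KO change counts them once, so a shift of the WT libraries moves the sum more. After the GC content and length trends were taken out, the interaction was 1.48 for Meis1 (adjusted p = 0.0120), 0.40 for Meis2 (adjusted p = 0.0329), 0.74 for Pbx3 (adjusted p = 0.0612) and 0.06 for Pbx2 (adjusted p = 0.709).

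**Figure D3:**
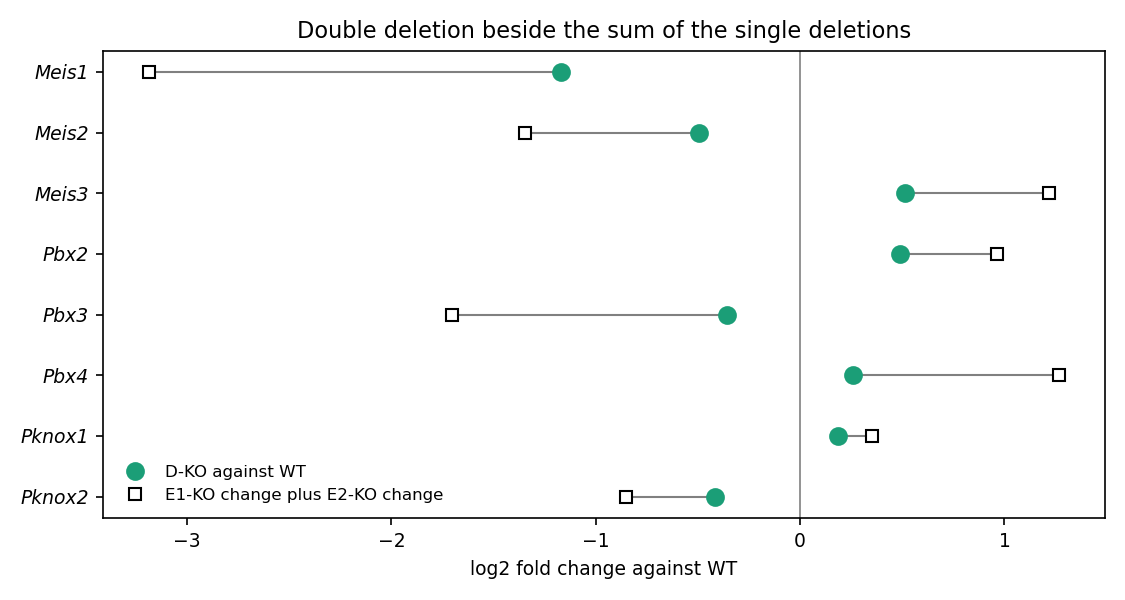
The x axis gives log2 fold changes against WT for the 8 genes, with circles for D-KO and open squares for the sum of the E1-KO and E2-KO changes. Every circle lies nearer to 0 than its square, and the widest gap is that of Meis1, at -1.17 against -3.19.

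Levels of different genes were compared as CPM per kilobase of exons. Pbx2 was the most abundant member in each genotype, at 33.8 ± 1.57 in D-KO, 31.8 ± 0.656 in E1-KO and 35.6 ± 0.90 in E2-KO, against 24.1 ± 3.02 in WT (SD, n = 3 each), and its libraries did not overlap those of the gene ranked next. Meis1 was the least abundant in the KO genotypes, at 0.777 ± 0.0297 in D-KO, 0.516 ± 0.103 in E1-KO and 0.653 ± 0.0456 in E2-KO. In WT it had rank 5 of 8 at 1.74 ± 0.483 (rank 7 by the length of the longest transcript). Its libraries were separate from those of the gene ranked just above it in E2-KO, and overlapped with Meis3 in D-KO and with Pbx3 in E1-KO. By the length of the longest transcript, Meis1 was again last in each KO genotype, and was separate from the gene above it in E1-KO as well.

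In WT the order after Pbx2 was Meis2 at 5.67, Pknox1 at 4.95, Pbx4 at 3.03, Meis1 at 1.74, Pbx3 at 1.44, Pknox2 at 1.38 and Meis3 at 0.616 CPM per kilobase, and among these 7 genes only the step between Pknox2 and Meis3 separated all libraries. In D-KO it was Pknox1 at 5.63, Meis2 at 4.01, Pbx4 at 3.70, Pbx3 at 1.12, Pknox2 at 1.03, Meis3 at 0.909 and Meis1 at 0.777. Libraries overlapped between Meis2 and Pbx4 and between each pair of neighbours from Pbx3 down to Meis1. In E1-KO it was Pknox1 at 5.59, Pbx4 at 4.27, Meis2 at 3.64, Pknox2 at 1.08, Meis3 at 0.803, Pbx3 at 0.622 and Meis1 at 0.516, and only the last 3 overlapped with a neighbour. In E2-KO it was Pknox1 at 5.58, Pbx4 at 5.38, Meis2 at 3.46, Meis3 at 1.19, Pbx3 at 1.02, Pknox2 at 0.971 and Meis1 at 0.653, with overlaps between Pknox1 and Pbx4, Meis3 and Pbx3, and Pbx3 and Pknox2. Meis2 stood below Pknox1 in each KO genotype and above it in WT, where the libraries of these genes overlapped. By the length of the longest transcript this order was the same, but Meis2 at 12.4 was separate from Pknox1 at 8.07 in WT, and the 2 genes overlapped in D-KO and E1-KO. That length also put Meis2 at 7.98 above Pbx4 at 6.07 in E1-KO with separate libraries, the reverse of the order by all exons.

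**Figure D4:**
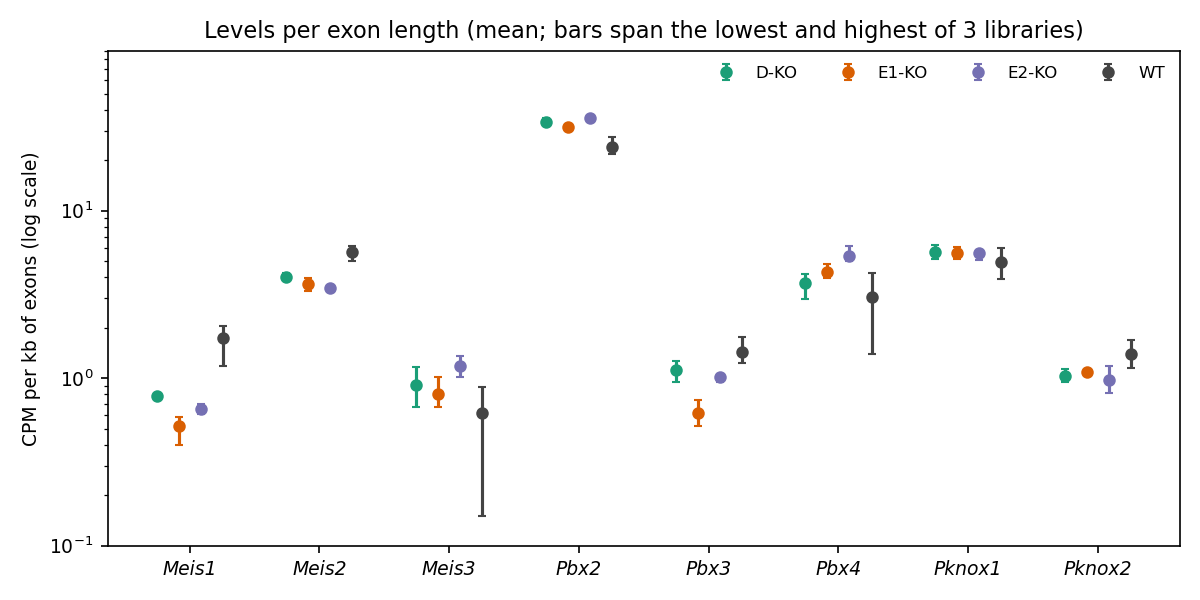
The y axis gives CPM per kilobase of exons on a log scale and the x axis the 8 genes. Points are means in each genotype and bars span the lowest and highest of 3 libraries. Pbx2 lies above 20 in every genotype, and Meis1 is the lowest of the 8 in the KO genotypes.

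Among the other TALE homeodomain genes, 6 of 9 listed passed the filter on low counts. In D-KO and in E1-KO 1 was higher and 3 were lower than in WT, and in E2-KO 1 was higher and 2 were lower. Of all tested genes 22.8% were called in D-KO, 34.2% in E1-KO and 35.3% in E2-KO. The median log2 fold change was -1.15 in D-KO, -0.84 in E1-KO and -0.91 in E2-KO. Tgif1, a repressor that also restrains retinoic acid and TGF-beta responses, was the one that rose, by 0.51 ± 0.09 in D-KO (edgeR adjusted p = 0.00159), 0.70 ± 0.09 in E1-KO (adjusted p = 8.42e-05) and 0.80 ± 0.09 in E2-KO (adjusted p = 3.36e-05) on the log2 scale. Mkx, a regulator of tendon cells, and Irx5, an Iroquois gene, were lower in all 3 genotypes. Mkx stood at -1.55 ± 0.41 in D-KO (adjusted p = 0.0137), -1.05 ± 0.39 in E1-KO (adjusted p = 0.0497) and -1.61 ± 0.41 in E2-KO (adjusted p = 0.00816), by edgeR.

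Of the Hox partners, all 18 HoxA and HoxB genes of paralogue groups 1 to 10 were tested. In D-KO 17 were lower than in WT, 16 were lower in E1-KO, 16 were lower in E2-KO, and none was higher in any KO genotype. Their median log2 fold change was -2.71 in D-KO, -2.74 in E1-KO and -2.12 in E2-KO. Meis1, the member that fell most, stood at -1.17 in D-KO, -1.76 in E1-KO and -1.42 in E2-KO. Of 10 listed proteins other than Hox that bind Pbx or Meis, 7 were tested. In E1-KO, Pbxip1, which binds Pbx proteins and restrains them, was higher (log2 fold change 0.85 ± 0.22, edgeR adjusted p = 0.00902), and En2, a homeodomain partner of Pbx, was lower (-1.44 ± 0.53, adjusted p = 0.0472). En2 had 2.28, 1.95 and 1.81 CPM in E1-KO libraries and 3.50, 10.8 and 1.54 CPM in WT libraries, so that WT replicate 2 was far above the rest and WT replicate 3 was below all E1-KO libraries. None of these 7 passed in D-KO or E2-KO. Over all tested genes 34.2% were called in E1-KO, 22.8% in D-KO and 35.3% in E2-KO.

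Of 10 retinoic acid response genes outside the Hox clusters, 5 were lower and 1 was higher in D-KO than in WT, 6 were lower and none was higher in E1-KO, and 6 were lower and 1 was higher in E2-KO. The share of all tested genes called was 22.8% in D-KO, 34.2% in E1-KO and 35.3% in E2-KO. The median log2 fold change of the 10 genes was -0.58 in D-KO, -1.52 in E1-KO and -0.87 in E2-KO. The retinoic acid hydroxylase Cyp26a1 changed by -1.19 ± 0.18 in D-KO (edgeR adjusted p = 0.000382), -2.05 ± 0.18 in E1-KO (adjusted p = 3.04e-06) and -1.42 ± 0.18 in E2-KO (adjusted p = 6.40e-05). Meis1 had the same order of genotypes, with the smallest change in D-KO and the largest in E1-KO, although no difference of Meis1 between KO genotypes passed by edgeR over the 12 libraries.

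The genes whose levels followed Meis1 most closely over the 12 libraries, among 11982 candidates, were Hoxa4 (Pearson r of log2 CPM 0.992), Cyp26a1 (0.979) and Pgam2 (0.976). Over the 9 KO libraries alone the values were 0.977, 0.902 and 0.876. For Meis2 the closest were Scml2 (0.982), Zfand5 (0.968) and Tmtc1 (0.966), with 0.902, 0.725 and 0.755 over the KO libraries. For Pbx2 they were Mcrip2 (0.977), Adprh (0.977) and Wnt6 (0.977), with 0.783, 0.734 and 0.859. These correlations are descriptions: the points share genotypes and, in WT, the differences in GC trend given above, and the genes were picked as the highest of all candidates.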

How the data were processed

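The 12 RNA-seq libraries (E14 cells, total RNA) were grouped by the genotype in the labels. The files deposited by the authors hold raw read counts per gene symbol. HISAT2 2.1.0, HTSeq 0.9.1 and the build mm10 are named in the submitters' processing notes, but neither the annotation nor the strand setting of the counting is given in the sources used here. Reads of overlapping or antisense genes may thus be mixed. Reads without a gene, 1.11 to 1.20 times the counted reads for those with no feature, were left out. Samples of other assays were not analysed here.

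Genes were kept by filterByExpr and scaled by TMM, and edgeR 4.0.16 (R 4.3.3) fitted a robust quasi-likelihood model with a mean per genotype to all 12 libraries (common dispersion 0.0265). There were 7 contrasts. The ± after a log2 fold change is its standard error, and intervals are 95% t intervals of the fit. The script was tested on simulated counts. CPM per kilobase used the union of exons in GENCODE M21 (GRCm38). Alternatives were other scalings, no filter, GC content and length trends removed, a replicate block, only the libraries compared, libraries left out, limma 3.58.1 voom with library weights, DESeq2 1.42.0 and longest transcripts. The members, gene lists and motifs were chosen with earlier results of these data known. All 8 members are named in each comparison with WT, up to 3 genes of each list by smallest adjusted p, and the 3 genes most correlated with each of Meis1, Meis2 and Pbx2.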

Additional observations from a re-analysis of the deposited data

Results flagged for a closer look

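For 4 of the 8 members, the D-KO change against WT differed from the sum of the E1-KO and E2-KO changes. The test was edgeR's interaction term over the 12 libraries. D-KO is read here as the deletion of both elements. The WT libraries enter the sum more often than the D-KO change, so a shift of the WT libraries moves the sum more. The part of such a shift, or of differences between clones, was not tested. The log2 interaction was 2.02 for Meis1 (D-KO change -1.17, sum of the E1-KO and E2-KO changes -3.19, adjusted p = 0.000308), 0.85 for Meis2 (D-KO change -0.50, sum -1.35, adjusted p = 0.00116) and 1.35 for Pbx3 (D-KO change -0.36, sum -1.70, adjusted p = 0.00361). It was -0.47 for Pbx2 (D-KO change 0.49, sum 0.96, adjusted p = 0.0219). Of all tested genes 35.2% were called for the same term. With GC content and length trends removed, Meis1 (1.48, adjusted p = 0.0120) and Meis2 (0.40, adjusted p = 0.0329) stayed called, while Pbx3 stood at 0.74 (adjusted p = 0.0612) and Pbx2 at 0.06 (adjusted p = 0.709). The Pbx2 call was also lost without E1-KO replicate 2, E2-KO replicate 1 or D-KO replicate 1.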

How the results depend on the processing

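With relative log expression scaling and with DESeq2, all 56 member values (8 members in 7 comparisons) kept their direction and their side of the threshold. The number of members called in E2-KO against WT was 5, beside 35.3% of all genes. It was 3 with library totals as the only scaling, beside 33.2% of all genes, and with limma, beside 31.2%. With GC content and length trends removed it was also 3, beside 31.1% of all genes, or 29.5% with the replicate block added. Fitting only the libraries compared gave 3 as well, beside 16% of all genes. With only the libraries compared, 1 member was called in D-KO against WT, where all 12 libraries gave 3. That fit called 9.09% of all genes, where the 12 libraries called 22.8%. In D-KO against E1-KO (1 called), the count was 2 with only the libraries compared, with limma and without WT replicates 1 and 3, and 0 with the replicate block and both trends removed. Over all genes 15.9% were called there, and 50.7%, 47.6% and 44.8% in the first 3 of these settings. In the last, which called 0 members, 19.8% of all genes were called. In D-KO against E2-KO and in E1-KO against E2-KO (0 called each), it was 2 in each of those same 3 settings. The share of all genes called rose with it, to 37.3%, 34.5% and 34.4% in D-KO against E2-KO (4.48% in the 12 libraries) and to 21.4%, 17.1% and 19.3% in E1-KO against E2-KO (0.596%). For the interaction (4 called, beside 35.2% of all genes), the count was 2 with both trends removed, beside 32.6%. Leaving out 1 library at a time gave 3 to 4 called members for D-KO against WT, 4 to 6 for E1-KO against WT, 3 to 7 for E2-KO against WT, 0 to 2 in D-KO against E1-KO, 0 to 1 in D-KO against E2-KO, 0 to 0 in E1-KO against E2-KO and 3 to 5 for the interaction. The share of all genes called moved too. Against WT it ran from 14% to 40.9% in D-KO, 23% to 51.1% in E1-KO and 23% to 51.9% in E2-KO. The highest counts and shares against WT came without WT replicate 2. The share ran from 6.82% to 28.8% in D-KO against E1-KO and from 1.32% to 16.8% in D-KO against E2-KO. It ran from 0.0929% to 4.2% in E1-KO against E2-KO and from 26.8% to 50.7% for the interaction. Of the 672 member values in the fits that left out 1 library, 12 reversed, 27 lost and 11 gained their call.

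Values that reversed were those of members without a call, except that of the Pbx2 interaction. With library totals, Pbx2 and Pknox1 in D-KO against E1-KO came to -0.00767 and -0.0866, and Pknox1 in D-KO against E2-KO to -0.0512. With no filter, Pknox1 in E1-KO against E2-KO came to -0.00561. With both trends removed, Meis3 in E1-KO against WT was -0.127 (-0.140 with the replicate block), Pbx4 in D-KO against WT -0.0178, Pknox2 in D-KO against E1-KO 0.0364 (0.0369 with the block), Pbx2 in D-KO against E2-KO 0.110 (0.108), Pbx3 in D-KO against E2-KO -0.0461 (-0.0486), Pknox1 in E1-KO against E2-KO -0.00440 (-0.00278) and the Pbx2 interaction 0.0624 (0.0588). Leaving out 1 library gave ranges across 0 for Meis3 in E1-KO against WT (-0.0855 to 0.696) and in D-KO against E1-KO (-0.0350 to 0.387), for Pbx4 in D-KO against WT (-0.0723 to 0.582), for Pknox1 in D-KO against E1-KO (-0.0646 to 0.0705), D-KO against E2-KO (-0.0616 to 0.0722) and E1-KO against E2-KO (-0.0584 to 0.0591), and for Pknox2 in D-KO against E2-KO (-0.0222 to 0.257). Without WT replicates 1 and 3, Meis3 in E1-KO against WT was -0.140, Pbx4 in D-KO against WT -0.190 and Pknox1 in D-KO against E1-KO -0.00392. In that fit the lone WT library is assumed to vary like the others, and Meis1 was called in each KO genotype against WT, at -1.40 (D-KO), -1.99 (E1-KO) and -1.66 (E2-KO). The causes of these changes were not tested.

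With library totals the share of higher calls over all genes was 57.1% in E1-KO against WT (45.9% with TMM), 35.9% in D-KO against E1-KO (52.9%), 65% in E1-KO against E2-KO (54%) and 38.7% for the interaction (51.4%), and the median of all genes shifted by 0.11 in E1-KO against WT and by -0.17 for the interaction.

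With a replicate block, 4 members were called in E2-KO against WT (Pknox2 at an edgeR adjusted p of 0.0514), beside 33.3% of all genes. For the interaction 5 were called (Pbx4 at an adjusted p of 0.0366), beside 33.5%. The other 5 counts did not move. The replicate numbers share only a number: over 18 pairs with the same number, correlations of deviations ran from -0.08 to 0.08, and 2 of 12 libraries correlated best with their own number.

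Meis3 had the fewest counts, 4 to 41 per library, and its SD of log2 CPM was 0.38 in D-KO, 0.30 in E1-KO and 0.20 in E2-KO, against 1.22 in WT. The part of depth in its missing calls was not tested.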

Other observations

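WT replicate 3 stood at opposite ends for different members. It was the lowest of the 12 libraries for Meis3 (0.475 CPM) and Pbx4 (3.09 CPM) and the highest for Pknox2 (17.5 CPM). WT replicate 1 was the lowest of the 12 for Pknox1 (27.2 CPM) and Pbx2 (79.0 CPM) and the highest for Meis2 (73.7 CPM) and Pbx3 (10.7 CPM). Reads of mitochondrial genes took 3.50%, 1.94% and 5.88% of the counts in WT replicates 1, 2 and 3, and 1.36% to 2.69% in the KO libraries.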
